A study of Rattus norvegicus with 23 samples.

Results

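To examine which neural transcripts were carried in RNA from isolated microglia, 39 genes that mark neurons, astrocytes and cells of the oligodendrocyte lineage were followed in the 20301 genes of the table. They were chosen by name as markers of a cell type that are rows of the table, and comprise 10 astrocyte genes, 5 oligodendrocyte progenitor genes, 8 oligodendrocyte genes and 16 neuron genes. The RNA came from cells bound by CD11b/c microbeads, which capture microglia and other myeloid cells, 24 h after the operation, from Wistar rats of both sexes operated at postnatal day 7. Brains had been dissociated enzymatically and myelin had been removed before the magnetic separation. In the Sham group, 6 samples came from pups with a neck incision alone, and no injection is listed for them. In the LPS group, 5 samples came from pups given lipopolysaccharide from Escherichia coli at 0.1 mg/kg into the peritoneum 4 h before a sham operation. In the NaCl/HI group, 6 samples came from pups injected with NaCl, whose left common carotid artery was tied before hypoxia at 8% oxygen for 50 min. The 6 LPS/HI samples came from pups that received both the LPS dose and the ligation with hypoxia. Each Sham or LPS sample was the entire brain of 1 pup, whereas each NaCl/HI or LPS/HI sample pooled the ipsilateral hemispheres of 2 pups. Hypoxia-ischemia (HI) therefore cannot be told apart from the tissue taken or from pooling wherever NaCl/HI or LPS/HI is set against Sham or LPS, and in LPS against Sham the effect of LPS cannot be separated from that of an injection.

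Astrocytes take up glutamate, supply neurons with metabolites and become reactive after injury, when they make more of the intermediate filament protein GFAP. Oligodendrocyte progenitors divide and migrate through the newborn brain, then stop dividing and wrap axons with myelin, and in the rat this myelination begins in the days after birth. Neurons carry their transcripts for synaptic proteins and cytoskeleton partly in long processes. Microglia engulf dying cells, synapses and myelin, and an isolate of microglia can also hold other cells or fragments bound to them. In bulk RNA of this kind, fewer cells of a type and less RNA per cell cannot be told apart, and neither can carried-over and engulfed material.

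Markers of microglia were present in every library, with 19 of the 20 listed genes found as rows and list means between 12.54 and 12.80 on the log2 scale. Cx3cr1, the fractalkine receptor, lay between 15.38 and 15.70, and Csf1r, the receptor for the survival factor of microglia, between 16.30 and 16.64. All 39 members were rows of the table as well, and none of them was filtered out here. The values are log2 values transformed with rlog, which draws weakly expressed genes toward their mean, and 3 surrogate variables had been removed from them with the groups kept. The p values can therefore come out too low. They are not scaled for transcript length, so levels are compared here between samples and not between genes. Library medians ranged from 7.75 to 7.82, and read depth is unknown. All 23 samples entered a single limma fit, and a gene was called at an adjusted p under 0.05 over all genes.

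In LPS samples, some astrocyte transcripts were higher and some neuron transcripts lower than in Sham samples. Of the 39 members, 2 astrocyte genes rose and 6 neuron genes and 1 oligodendrocyte gene fell, which makes 9 members where 17.8% of all genes were called, 10.2% as higher and 7.56% as lower. In LPS/HI against Sham, 5 members were called, 2 astrocyte genes as higher and 3 neuron genes as lower, where 8.77% of all genes were called, 5.3% as higher and 3.48% as lower. The other pairs gave few calls. LPS/HI against LPS gave 1 member, with 1.94% of all genes called, and LPS against NaCl/HI gave 4, 2 as higher and 2 as lower, with 8.98% called, 5.32% as higher and 3.66% as lower. No member was called in NaCl/HI against Sham by limma, where 0.00985% of all genes were called, and 3 members had an unadjusted p under 0.05, against 14.8% of all genes. LPS/HI against NaCl/HI gave none either, with 0.202% of all genes called (0.153% as higher and 0.0493% as lower) and 3 members under 0.05 unadjusted, against 10.6% of all genes. The interaction, which asks whether the LPS difference was the same with and without HI, gave none of the 39, with 1.08% of all genes called (0.365% as higher and 0.719% as lower) and 1 member, Syt1, under 0.05 unadjusted, against 15.1% of all genes. No called member differed by more than 2-fold, and the largest of their differences was 0.84 for Gfap, a 1.79-fold difference. Among all genes, calls above 2-fold made up 0.069% in LPS against Sham, 0.00493% in NaCl/HI against Sham, 0.0936% in LPS/HI against Sham, 0.0345% in LPS/HI against LPS, 0.0148% in LPS/HI against NaCl/HI, 0.0591% in LPS against NaCl/HI and 0.00985% in the interaction. By an exact Wilcoxon rank-sum test adjusted over all genes, the calls of Aldh1l1, Fgfr3, Map2, Mobp and Nefl in LPS against Sham, of S100b in LPS/HI against Sham, of Stmn2 in LPS/HI against LPS and of all members in LPS against NaCl/HI were lost. In the last 2 of these pairs that test called none of the 20301 genes, and Stmn2, whose groups did not overlap, had an adjusted p of 0.104 and 0.0593 there. Even full separation could thus not pass in these pairs, so the losses there say nothing about the members. In LPS against Sham, the calls of Map2 and Slc17a7 were also lost without the variance trend and with the library series as a block, that of Slc17a7 with robust variances, those of Nefl, Slc17a7 and Stmn2 after median centring or quantile normalization, and that of Map2 after median centring. S100b lost its call in LPS/HI against Sham under each of these settings, as did Gfap with robust variances and Syt1 after quantile normalization, which also ended the call of Stmn2 in LPS/HI against LPS. With the replicate number as a block, the calls of Gfap, S100b and Syt1 in LPS/HI against Sham were lost. That block also ended those of Stmn2 in LPS/HI against LPS and of Map2, Slc17a7 and Stmn2 in LPS against Sham. The comparisons share samples, so they are not independent of each other.

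**Figure D1:**
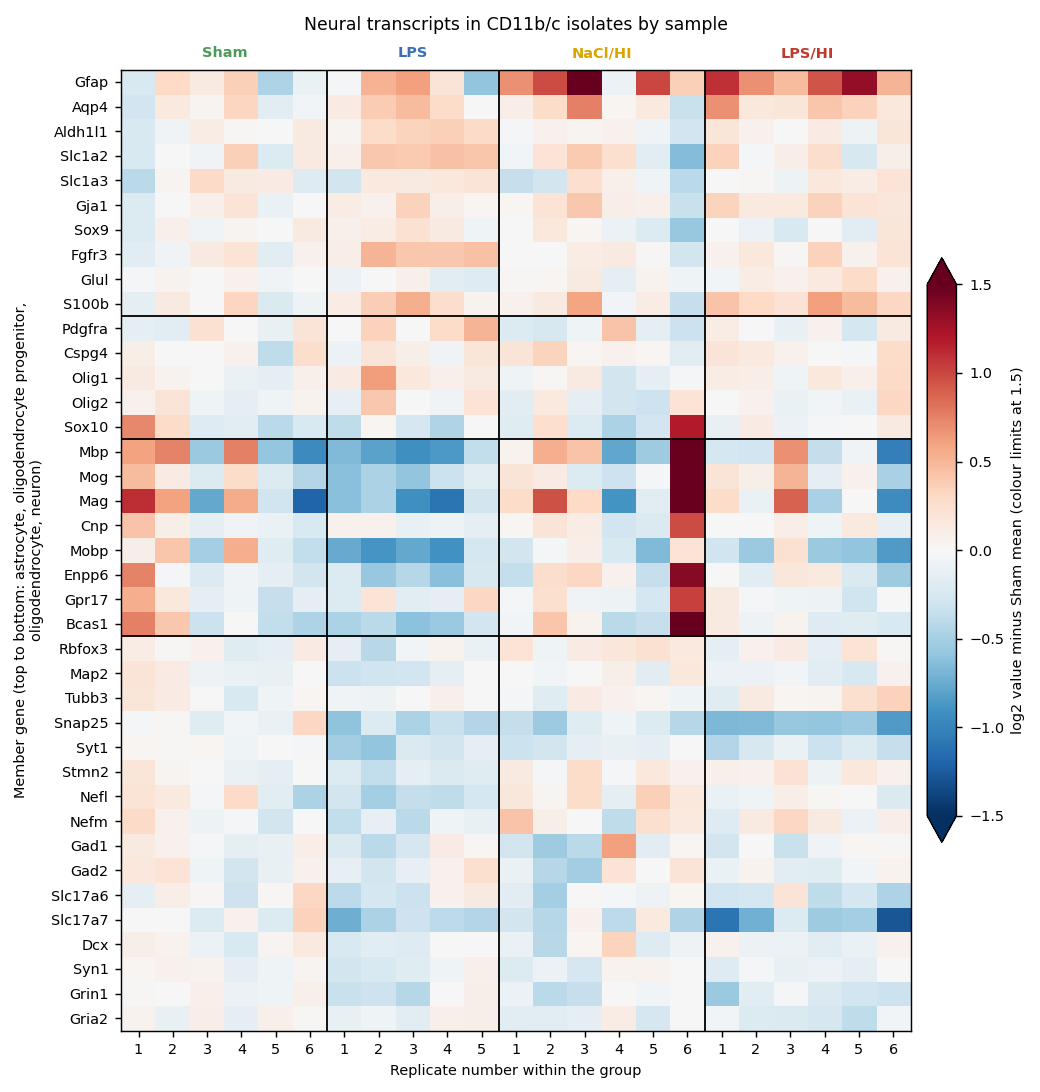
Each cell gives the log2 value of a member gene (rows) in a sample (columns) minus the mean of the 6 Sham samples, with colour limits at 1.5. Gfap is raised in all 6 LPS/HI columns, Snap25 is lowered in LPS and LPS/HI, and replicate 6 of NaCl/HI stands out for the oligodendrocyte genes.

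Of the 10 astrocyte members, 9 had a higher mean in LPS than in Sham, and 2 of these passed the test, against 10.2% of all genes called higher. The median of the 10 differences was 0.19, against -0.01 over all genes. Fgfr3 encodes a fibroblast growth factor receptor that astrocytes and their precursors carry. Its log2 values in the 5 LPS samples were 10.03, 10.44, 10.34, 10.33 and 10.37, while Sham ran from 9.76 over a median of 9.93 to 10.14 and NaCl/HI from 9.65 over 9.94 to 10.06. LPS replicate 1 lay inside the Sham and NaCl/HI ranges and the other 4 LPS samples above them. Fgfr3 rose by 0.37 ± 0.09 (SE) in LPS against Sham (adjusted p = 0.00607) and by 0.37 ± 0.09 against NaCl/HI (adjusted p = 0.0092), 1.29-fold and 1.30-fold. LPS/HI lay between 9.95 and 10.28, and its difference from LPS, -0.23, did not pass the test (adjusted p = 0.187).

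Aldh1l1, a folate enzyme used as a marker of all astrocytes, had 8.60, 8.84, 8.89, 8.92 and 8.85 in LPS. Sham ran from 8.33 over 8.57 to 8.69, NaCl/HI from 8.27 over 8.56 to 8.62 and LPS/HI from 8.48 over 8.65 to 8.74. The same 4 LPS samples lay above all of these groups. The rise was 0.26 ± 0.08 against Sham (adjusted p = 0.0224) and 0.30 ± 0.08 against NaCl/HI (adjusted p = 0.0201). Without LPS replicate 4 the first of these calls was lost (adjusted p = 0.0518). Slc1a2, the main astrocyte glutamate transporter, was 0.35 higher in LPS than in Sham without passing the test (adjusted p = 0.106), though it passed without Sham replicate 4 (adjusted p = 0.0498) or NaCl/HI replicate 6 (adjusted p = 0.0374), and the other transporter, Slc1a3, differed by 0.07 (adjusted p = 0.752). Glul, which makes glutamine from glutamate and is also expressed by microglia, was the astrocyte member with the lower mean in LPS, with a difference of -0.08 (adjusted p = 0.402).

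In LPS/HI against Sham, the astrocyte members called were Gfap and S100b, where 5.3% of all genes were called higher. Gfap ran from 11.12 over 11.46 to 11.96 in LPS/HI and from 10.18 over 10.66 to 11 in Sham, so these groups did not overlap, as was the case for 6.37% of all genes. The NaCl/HI samples ran from 10.55 over 11.47 to 12.19, and the LPS samples had 10.61, 11.16, 11.26, 10.83 and 10.05. Both HI groups thus had most of their samples above the Sham range. Gfap rose by 0.84 ± 0.24 in LPS/HI against Sham (adjusted p = 0.0326). The call was lost without Sham replicate 1, 5 or 6 or LPS/HI replicate 5, with adjusted p up to 0.0697. LPS differed from NaCl/HI by -0.60 (adjusted p = 0.144), and by -0.77 (adjusted p = 0.0367) without NaCl/HI replicate 4. In NaCl/HI against Sham the difference was 0.74 ± 0.24 (adjusted p = 0.186), and it was 0.91 (adjusted p = 0.0249) without NaCl/HI replicate 4. LPS/HI exceeded LPS by 0.70 ± 0.25 (adjusted p = 0.157) and NaCl/HI by 0.09, with a 95% interval from -0.40 to 0.59.

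S100b, a calcium-binding protein of astrocytes, ran from 8.97 over 9.12 to 9.36 in LPS/HI and from 8.53 over 8.71 to 9.07 in Sham. It had 8.86, 9.12, 9.29, 9.01 and 8.80 in LPS and ran from 8.41 over 8.84 to 9.34 in NaCl/HI. The ranges of all groups overlapped. In LPS/HI against Sham it rose by 0.39 ± 0.12 (adjusted p = 0.0487) and lost the call without Sham replicate 1, 3, 5 or 6 or LPS/HI replicate 2, 4 or 5, with adjusted p up to 0.0901. Aqp4, the water channel of astrocyte endfeet, was 0.32 higher (adjusted p = 0.146) and the gap junction gene Gja1 0.22 higher (adjusted p = 0.121, and 0.0483 without NaCl/HI replicate 6). Sox9, a transcription factor of astrocytes, differed from Sham by -0.05 in LPS/HI (adjusted p = 0.79).

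Genes listed for reactive astrocytes were higher in LPS/HI as well. Of 15 measured genes of that list, 10 were called higher in LPS/HI against Sham and none was called lower (13 means were above Sham and 2 below), where 5.3% of all genes were called higher, and the median difference of the list was 0.40. Timp1, an inhibitor of matrix proteases, rose by 0.79 (adjusted p = 0.000843), the filament gene Vim by 0.42 (adjusted p = 0.00709), and Serping1, an inhibitor of complement, by 0.36 (adjusted p = 0.0127). Microglia and other myeloid cells also express several of these genes, Vim and Timp1 among them. In LPS against Sham, Timp1 rose by 0.71 (adjusted p = 0.000129) and Vim by 0.31 (adjusted p = 0.0233), while Osmr, a receptor for oncostatin M, fell by 0.37 (adjusted p = 0.00182) and Emp1 fell by 0.35 (adjusted p = 0.00774). Osmr was the gene of this list with an interaction, of 0.62 (adjusted p = 0.0124). Of 21 further astrocyte genes, 5 rose and 1 fell in LPS against Sham, where 10.2% of all genes were called higher and 7.56% lower. Aldoc, a glycolytic enzyme of astrocytes, rose by 0.31 (adjusted p = 0.0197), the proteoglycan gene Bcan rose by 0.28 (adjusted p = 0.00747), the Notch target Hes5 rose by 0.47 (adjusted p = 0.00831), and Nes, a filament gene of progenitors, fell by 0.45 (adjusted p = 0.00958). In LPS/HI against Sham, 4 of the 21 rose and none fell, where 5.3% of all genes were called higher.

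**Figure D2:**
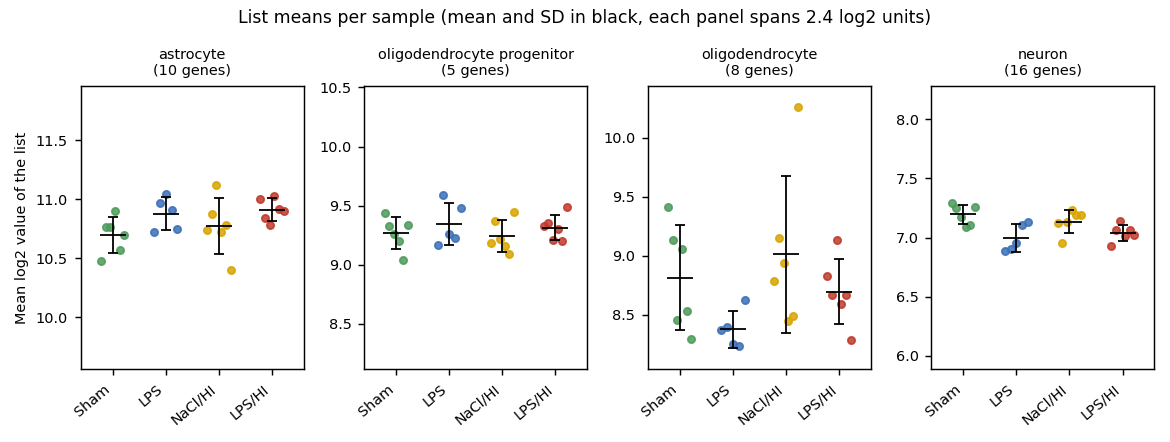
Mean log2 value of the member genes of a cell type in each sample (points) by group, with the group mean and SD in black and a span of 2.4 log2 units in each panel. The oligodendrocyte list spreads most, from 8.24 in an LPS sample to 10.26 in NaCl/HI replicate 6, while the neuron list stays between 6.89 and 7.29.

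None of the 5 oligodendrocyte progenitor members was called in any of the 7 comparisons. Olig1, a transcription factor of the whole lineage, had 8.65, 9.16, 8.69, 8.61 and 8.67 in LPS, against 8.26 over 8.49 to 8.66 in NaCl/HI and 8.38 over 8.55 to 8.67 in Sham. LPS replicate 2 was the highest of all samples, and the other LPS samples lay near the top of both other ranges. The difference was 0.28 ± 0.09 against NaCl/HI (adjusted p = 0.0559) and 0.22 ± 0.09 against Sham (adjusted p = 0.0967). The first of these passed the threshold in 11 of the 23 fits that leave out a sample, with the lowest adjusted p, 0.029, without NaCl/HI replicate 3. Pdgfra, the growth factor receptor that keeps progenitors dividing and that fibroblasts of the meninges also carry, was 0.32 higher in LPS than in NaCl/HI (adjusted p = 0.112). Without NaCl/HI replicate 4 it was 0.42 higher and passed the test (adjusted p = 0.00948). Olig2, the partner of Olig1, differed by 0.18 (adjusted p = 0.354) in the same comparison. Cspg4, the NG2 proteoglycan shared with pericytes, and Sox10, a transcription factor that stays on as progenitors mature, had adjusted p of at least 0.472 in every comparison.

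All 8 oligodendrocyte members had lower means in LPS than in Sham, though that of Gpr17 was 10.88 in both to 2 decimals. The median difference was -0.45 against -0.01 over all genes. Of the 8, 1 passed the test, where 7.56% of all genes were called lower. Mobp, a protein of compact myelin, had 7.40, 7.28, 7.39, 7.25 and 7.90 in LPS, from 7.65 over 8.11 to 8.70 in Sham, from 7.50 over 8.03 to 8.37 in NaCl/HI and from 7.31 over 7.60 to 8.39 in LPS/HI. All but LPS replicate 5 lay below the Sham range. Mobp fell by 0.71 ± 0.20 against Sham (adjusted p = 0.0192), 1.64-fold lower, and kept the call in each of the 23 fits that leave out a sample. Its difference was -0.57 against NaCl/HI (adjusted p = 0.086), which passed the test without LPS replicate 5, LPS/HI replicate 3 or NaCl/HI replicate 5 (lowest adjusted p = 0.0369).

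The other oligodendrocyte members passed the test in no comparison, and their spread within groups was wide. The standard deviation within groups had a median of 0.46 over the 8 members, against 0.11 over all genes, 0.20 over the progenitor, 0.21 over the astrocyte and 0.17 over the neuron members. Mag, an adhesion protein on the inner face of the myelin sheath, had the largest, at 0.99. Its values were 8.30, 7.79, 6.42, 7.75, 6.89 and 5.99 in Sham, 6.56, 6.71, 6.27, 6.10 and 6.91 in LPS, 7.46, 8.15, 7.49, 6.29, 7.03 and 10.25 in NaCl/HI, and 7.47, 7.09, 8.08, 6.70, 7.19 and 6.25 in LPS/HI, in the order of the replicate numbers. All groups overlapped, and NaCl/HI replicate 6 was far above the other 22 samples, of which Sham replicate 1 was the highest. LPS differed from Sham by -0.68 (adjusted p = 0.391) and from NaCl/HI by -1.27 (adjusted p = 0.136). Mbp, which encodes myelin basic protein, differed in LPS by -0.72 from Sham (adjusted p = 0.22) and by -0.98 from NaCl/HI (adjusted p = 0.132). Mog, on the outer face of myelin, differed by -0.65 in LPS against NaCl/HI (adjusted p = 0.108) and Enpp6, an enzyme of oligodendrocytes that have just begun to differentiate, by -0.63 (adjusted p = 0.104). Bcas1, a gene of early myelinating cells, did not overlap between LPS, at most 9.08, and LPS/HI, at least 9.13, without passing the test (difference 0.38, adjusted p = 0.538). Over all genes, 4.17% did not overlap in this pair. The largest difference of Cnp, an enzyme of myelin, was -0.18, in LPS against NaCl/HI (adjusted p = 0.548), and that of the receptor gene Gpr17, which marks cells between progenitor and oligodendrocyte, was -0.20, in LPS/HI against NaCl/HI (adjusted p = 0.718). These differences from NaCl/HI were smaller without NaCl/HI replicate 6, with -0.78 for Mag, -0.66 for Mbp, -0.39 for Mog, -0.40 for Enpp6 and -0.01 for Cnp in LPS, and -0.02 for Gpr17 in LPS/HI. Mag passed the test in LPS against NaCl/HI without NaCl/HI replicate 4 (difference -1.57, adjusted p = 0.0476) and Enpp6 without NaCl/HI replicate 5 (-0.74, adjusted p = 0.0486).

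The oligodendrocyte members rose and fell together from sample to sample. After the group means were subtracted, all 28 pairs of the 8 genes correlated positively, with a median Pearson r of 0.81 and a range from 0.43 to 0.95 over the 23 samples. The median was 0.61 among astrocyte members, 0.35 among progenitor members and 0.33 among neuron members. Between oligodendrocyte and astrocyte members it was -0.39, and this rested on 2 samples: without NaCl/HI replicate 6 and Sham replicate 1, 37 of the 80 pairs were positive and the list means had r = 0.06. The 28 oligodendrocyte pairs stayed positive without these samples, with a median of 0.67. The mean of the oligodendrocyte members followed the mean of 21 further genes of the lineage with r = 0.96 and a Spearman rho of 0.96, and with r = 0.92 without NaCl/HI replicate 6 and Sham replicate 1. These are descriptions over samples that span 16 dimensions once the group means and the 3 removed variables are taken out. The lists share the libraries.

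NaCl/HI replicate 6 held the highest mean of the oligodendrocyte members, 10.26, where the other 22 samples lay between 8.24 and 9.41, and the lowest mean of the astrocyte members, 10.40. Its mean over the microglia list was 12.67, inside the range of the other samples. Without it, the median difference of the oligodendrocyte members moved from -0.64 to -0.40 in LPS against NaCl/HI and from 0.21 to -0.04 in NaCl/HI against Sham. None of the 8 was called in either comparison, with or without it.

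**Figure D3:**
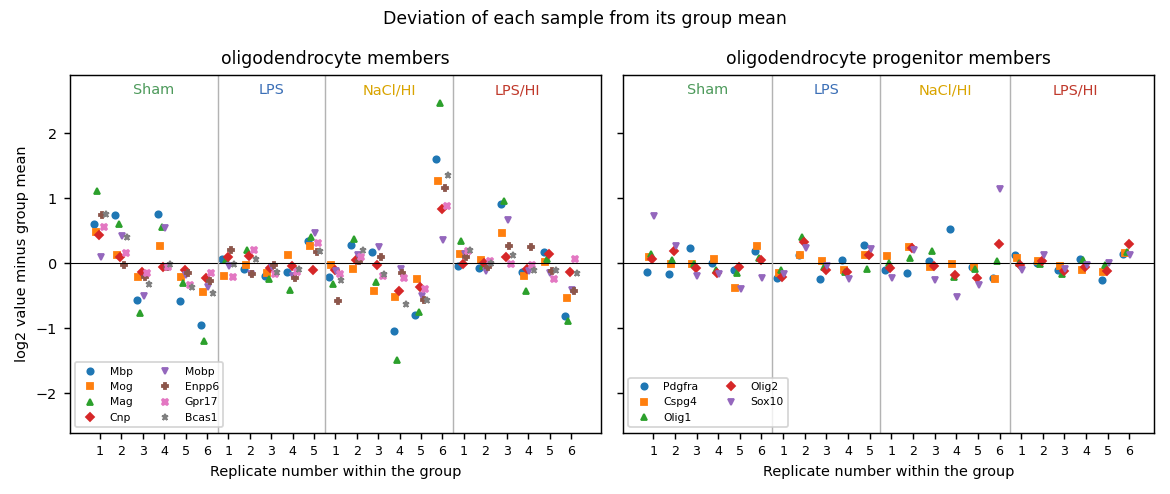
Deviation of each sample from the mean of its group, in log2 units, for the 8 oligodendrocyte members (left) and the 5 progenitor members (right), with 1 symbol per gene and samples on the horizontal axis. In Sham replicate 1, NaCl/HI replicate 6 and LPS/HI replicate 3 all oligodendrocyte genes lie above their group mean, apart from Gpr17 at the mean in the last of these samples, and of the progenitor genes Sox10 goes with them in the first and second of these.

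A short stretch before the start of transcription is shown for 4 of the 6 oligodendrocyte members with an entry in the RefSeq promoter table. The 4 shown are those whose every entry held the word searched for below, so they do not stand for the 6. Promoters were searched because the oligodendrocyte members varied together and SOX10, the product of a progenitor member, is known to bind such genes. Of the 39 members, 28 had an entry and 11 did not, and the 34 entries were searched over the 250 bases before the start. The searched word was CTTTGT, the core that SOX proteins bind, on either strand and it is set in capitals in the sequences. It occurred in 10 of the 34 entries, of which 3 are overlapping windows of Slc1a3, or in 8 of the 28 members, and in 16.3% of the 33469 promoters of the table. Mobp, the member called as lower in LPS, held 8 copies and was 1 of 2 promoters of the table (0.00598%) with 8 or more. Mag, Cnp and Enpp6 held 1 each. Of the members not printed, 1 of the 2 entries of Mbp held it and that of Gpr17 did not. Coordinates are of the GRCr8 build, and the table of values was made on another build. Mobp lies at chr8:128746982-128747231 on the plus strand, Mag at chr1:95291045-95291294 on the minus strand, Cnp at chr10:86011254-86011503 on the plus strand and Enpp6 at chr16:52026729-52026978 on the minus strand, each written 5′ to 3′ in the direction of its gene. A match is a description of these letters and not of binding.
Mobp: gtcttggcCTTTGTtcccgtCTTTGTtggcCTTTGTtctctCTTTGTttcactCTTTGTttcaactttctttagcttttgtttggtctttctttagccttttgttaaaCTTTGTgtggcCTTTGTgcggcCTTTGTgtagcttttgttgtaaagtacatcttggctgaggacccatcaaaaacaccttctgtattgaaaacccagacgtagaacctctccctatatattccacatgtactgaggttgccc
Mag: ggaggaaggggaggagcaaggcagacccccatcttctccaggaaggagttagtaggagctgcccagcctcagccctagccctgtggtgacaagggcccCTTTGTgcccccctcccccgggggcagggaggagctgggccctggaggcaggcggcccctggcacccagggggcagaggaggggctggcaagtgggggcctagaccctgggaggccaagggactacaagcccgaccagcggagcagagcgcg
Cnp: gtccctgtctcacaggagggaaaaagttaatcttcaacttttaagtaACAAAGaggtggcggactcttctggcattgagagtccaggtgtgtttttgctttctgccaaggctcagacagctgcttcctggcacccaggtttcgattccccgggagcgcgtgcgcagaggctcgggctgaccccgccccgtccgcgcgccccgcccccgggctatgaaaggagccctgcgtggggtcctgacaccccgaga
Enpp6: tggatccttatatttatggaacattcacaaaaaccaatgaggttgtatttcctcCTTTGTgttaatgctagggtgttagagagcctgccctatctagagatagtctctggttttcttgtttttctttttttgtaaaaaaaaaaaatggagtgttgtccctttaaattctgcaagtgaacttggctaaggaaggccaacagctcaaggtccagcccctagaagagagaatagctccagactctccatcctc

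Other words were rarer or absent in the members' promoters. TTCNNNGAA, the spaced word that STAT proteins bind, occurred in none of the 34 entries and in 7.67% of all promoters. TGACGTCA, the word bound by CREB, occurred in 1 entry, that of the synaptic vesicle gene Syn1, and in 1.59% of all. TATAAA occurred in 3 entries and in 12.9% of all.

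Of 21 further genes of the oligodendrocyte lineage, 1 rose and 1 fell in LPS against Sham (17.8% of all genes called), 2 fell in LPS against NaCl/HI (3.66% of all genes called lower) and 1 rose in LPS/HI against Sham (5.3% called higher). Myrf, the transcription factor that switches on myelin genes, fell by 0.38 in LPS against Sham (adjusted p = 0.0486) and by 0.69 against NaCl/HI (adjusted p = 0.002). Cldn11, a tight junction gene of myelin, fell by 0.88 against NaCl/HI (adjusted p = 0.0205). Mal, a protein of myelin and also of epithelia and T cells, went the other way, with rises of 0.44 in LPS (adjusted p = 0.0416) and 0.66 in LPS/HI (adjusted p = 0.00806) against Sham.

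All 16 neuron members had lower means in LPS than in Sham, with a median difference of -0.17 against -0.01 over all genes, and 6 of them passed the test, where 7.56% of all genes were called lower. The mean over the list was 7.19 ± 0.08 (SD, n = 6) in Sham, 6.99 ± 0.12 (n = 5) in LPS, 7.13 ± 0.10 (n = 6) in NaCl/HI and 7.04 ± 0.07 (n = 6) in LPS/HI. The genes called encode proteins of the presynaptic terminal (Snap25, Syt1, Slc17a7) and of the neuronal cytoskeleton (Stmn2, Nefl, Map2).

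Snap25, part of the complex that fuses synaptic vesicles, had 6.84, 7.24, 6.96, 7.11 and 7.0 in LPS, from 7.26 over 7.40 to 7.75 in Sham, from 6.90 over 7.15 to 7.37 in NaCl/HI and from 6.59 over 6.82 to 6.89 in LPS/HI. Neither LPS nor LPS/HI overlapped with Sham, and LPS/HI did not overlap with NaCl/HI. Over all genes, groups did not overlap for 13.9% in LPS against Sham, 6.37% in LPS/HI against Sham and 1.33% in LPS/HI against NaCl/HI. Snap25 fell by 0.41 ± 0.10 in LPS (adjusted p = 0.00591) and by 0.64 ± 0.09 in LPS/HI (adjusted p = 0.00103), 1.33-fold and 1.56-fold lower than Sham. Both calls held in all 23 fits that leave out a sample. The difference from Sham in NaCl/HI was -0.29 (adjusted p = 0.181), and -0.34 (adjusted p = 0.037) without NaCl/HI replicate 4. LPS/HI differed from NaCl/HI by -0.35, with a 95% interval from -0.54 to -0.16 (adjusted p = 0.111), and from LPS by -0.24 (adjusted p = 0.224).

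Slc17a7, the vesicular glutamate transporter of cortical excitatory neurons, had 5.90, 6.15, 6.32, 6.24 and 6.19 in LPS. It ran from 6.42 over 6.64 to 6.97 in Sham, from 6.18 over 6.29 to 6.78 in NaCl/HI and from 5.35 over 6.00 to 6.42 in LPS/HI. LPS lay below Sham throughout, and LPS/HI reached the lowest Sham value with 1 sample. Slc17a7 fell by 0.72 ± 0.16 in LPS/HI against Sham (adjusted p = 0.00874), 1.65-fold lower, and kept this call in all 23 fits that leave out a sample. In LPS it fell by 0.47 ± 0.16 (adjusted p = 0.0495), a call that was lost in 8 of those fits (Sham replicates 1, 2, 4 and 6, LPS replicates 1, 2, 4 and 5), with adjusted p up to 0.107. The transporter of subcortical neurons, Slc17a6, differed from Sham by -0.15 in LPS (adjusted p = 0.464) and -0.24 in LPS/HI (adjusted p = 0.229).

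Syt1, the calcium sensor of vesicle release, had 6.03, 5.96, 6.33, 6.28 and 6.40 in LPS, from 6.48 over 6.56 to 6.58 in Sham, from 6.23 over 6.40 to 6.54 in NaCl/HI and from 6.11 over 6.27 to 6.45 in LPS/HI. LPS and LPS/HI lay below Sham without overlap. It fell by 0.35 ± 0.08 in LPS (adjusted p = 0.00657) and by 0.27 ± 0.08 in LPS/HI (adjusted p = 0.0379). The second call was lost without Sham replicate 1 or 2 or LPS/HI replicate 4 or 6, with adjusted p up to 0.0577.

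Stmn2, Nefl and Map2 fell in LPS against Sham, and Stmn2 was also lower in LPS than in both HI groups. Stmn2, a tubulin-binding protein of growing axons, had 7.18, 7.02, 7.26, 7.17 and 7.21 in LPS, from 7.25 over 7.39 to 7.57 in Sham, from 7.36 over 7.50 to 7.66 in NaCl/HI and from 7.31 over 7.46 to 7.61 in LPS/HI. LPS lay below both HI groups and overlapped only with the lowest Sham sample. Over all genes, 7.31% did not overlap in LPS against NaCl/HI. Stmn2 fell by 0.32 ± 0.07 in LPS against NaCl/HI (adjusted p = 0.00743) and by 0.22 ± 0.07 against Sham (adjusted p = 0.0421), and LPS/HI exceeded LPS by 0.30 ± 0.07 (adjusted p = 0.0343), where 1.22% of all genes were called higher. The call against Sham was lost without Sham replicate 1, 2 or 6 or LPS replicate 1, 2 or 4 (adjusted p up to 0.104), and that of LPS/HI against LPS when LPS/HI replicate 5 or LPS replicate 2 or 4 was left out (adjusted p up to 0.0726). The interaction for Stmn2 was 0.20 (adjusted p = 0.347).

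Nefl, the light neurofilament chain of axons, had 5.48, 5.24, 5.39, 5.37 and 5.49 in LPS and ran from 5.61 over 5.91 to 6.11 in NaCl/HI, from 5.53 over 5.72 to 5.85 in LPS/HI and from 5.27 over 5.82 to 6.04 in Sham. LPS lay below both HI groups, and Sham replicate 6 lay among the LPS samples. Nefl fell by 0.50 ± 0.12 in LPS against NaCl/HI (adjusted p = 0.00964), a call kept in all 23 fits that leave out a sample. Against Sham it fell by 0.35 ± 0.12 (adjusted p = 0.0417) and lost the call without Sham replicate 1, 2 or 4 or LPS replicate 2, 3 or 4, with adjusted p up to 0.0904. LPS/HI was 0.31 higher than LPS without passing the test (adjusted p = 0.179). Map2, a microtubule protein of dendrites, had 10.36, 10.38, 10.39, 10.53 and 10.69 in LPS and from 10.57 over 10.64 to 10.87 in Sham, from 10.51 over 10.68 to 10.84 in NaCl/HI and from 10.44 over 10.59 to 10.74 in LPS/HI. LPS overlapped with each of these groups. It fell by 0.21 ± 0.07 in LPS against Sham (adjusted p = 0.0455). Without Sham replicate 1, 2 or 6 or LPS replicate 1, 2, 3 or 4 the call was lost, with adjusted p up to 0.0975. Its difference from NaCl/HI, -0.22 (adjusted p = 0.0678), passed the test without Sham replicate 1, LPS replicate 5, NaCl/HI replicate 5 or LPS/HI replicate 5, with adjusted p down to 0.0173.

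**Figure D4:**
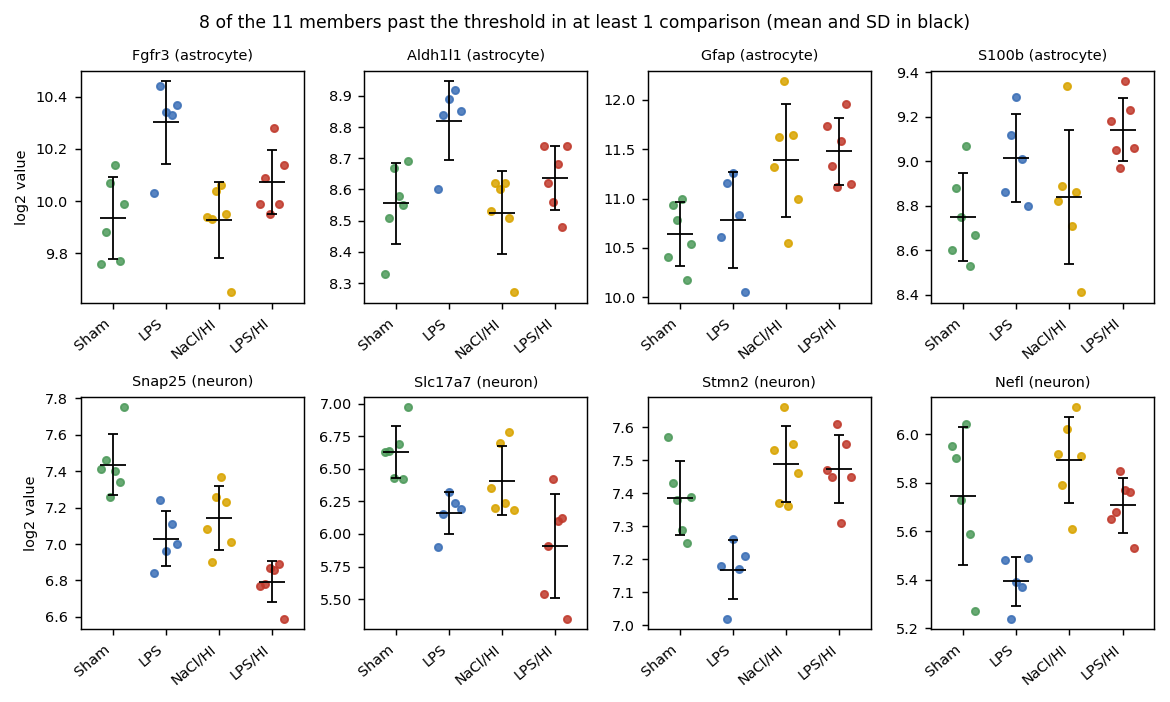
Log2 values of 8 of the 11 members called in at least 1 comparison, as points for single samples in the 4 groups with the group mean and SD in black, and with a scale of its own for each gene. Fgfr3 and Aldh1l1 are highest in LPS, Gfap is highest in both HI groups, Snap25 and Slc17a7 are lowest in LPS/HI, and Stmn2 and Nefl are lowest in LPS.

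The other 10 neuron members passed the test in no comparison over all 23 samples. With a sample left out, Rbfox3 passed in LPS against NaCl/HI without LPS replicate 4 (adjusted p = 0.0424) or NaCl/HI replicate 2 (adjusted p = 0.0363), Nefm in the same pair without NaCl/HI replicate 4 (adjusted p = 0.0264), and Gria2 in LPS/HI against Sham without LPS/HI replicate 1 (adjusted p = 0.0409). They were Rbfox3, a splicing factor of mature neurons, the tubulin gene Tubb3, the medium neurofilament chain Nefm, Gad1 and Gad2, which make the transmitter GABA, Slc17a6, Dcx, a microtubule protein of migrating young neurons, Syn1, and the glutamate receptor genes Grin1 and Gria2. The smallest adjusted p among them were 0.0717 for Rbfox3 in LPS against NaCl/HI, with a difference of -0.26, 0.0961 for Gria2 in LPS/HI against Sham, with -0.18, and 0.0994 for Grin1 in the same pair, with -0.27. Differences of Dcx stayed between -0.12 and 0.07 over the 6 pairs of groups, with a 95% interval from -0.33 to 0.08 for LPS against Sham.

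**Figure D5:**
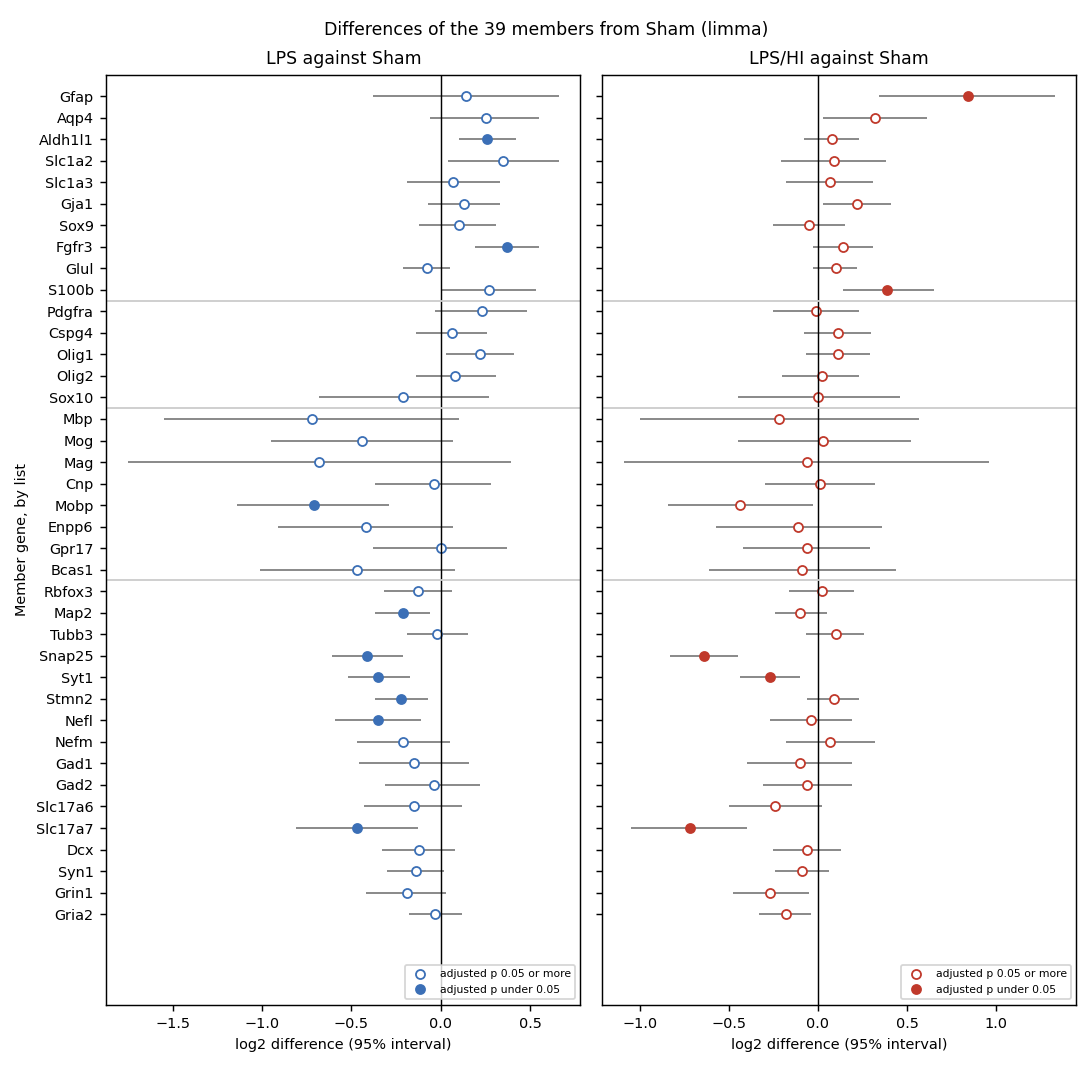
Log2 difference of each of the 39 members from Sham (points) with its 95% interval (lines), for LPS on the left and LPS/HI on the right, filled where the adjusted p was under 0.05. On the left all oligodendrocyte and neuron points lie at or below 0, and on the right Gfap at 0.84 and Slc17a7 at -0.72 are farthest from 0.

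Of 30 further neuron genes, 3 fell and 1 rose in LPS against Sham, where 7.56% of all genes were called lower and 10.2% higher, so their share was near or below that of all genes. Chga, a protein of dense-core vesicles, fell by 0.32 (adjusted p = 0.0285), its relative Scg2 fell by 0.40 (adjusted p = 0.0373) and the RNA-binding gene Celf4 fell by 0.21 (adjusted p = 0.0431), while the tubulin gene Tubb2b rose by 0.23 (adjusted p = 0.0111). In LPS/HI against Sham, 19 of the 30 means were higher and 11 lower, with a median difference of 0.05. Of these genes 3 were called lower and none higher, where 3.48% of all genes were called lower. Among the 3, Celf4 fell by 0.29 (adjusted p = 0.0117) and Chga by 0.39 (adjusted p = 0.0154). In LPS/HI against LPS, Scg2 rose by 0.57 (adjusted p = 0.0275), the glycolytic enzyme gene Eno2 by 0.36 (adjusted p = 0.0371) and Gap43, a protein of growth cones, by 0.37 (adjusted p = 0.0484).

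Markers of other cells moved between the same groups, and their part in the results was not tested. Of 19 microglia genes, 6 fell and 5 rose in LPS against Sham, where 7.56% and 10.2% of all genes did. P2ry13, a nucleotide receptor, fell by 0.42 (adjusted p = 0.00209), Sall1, a transcription factor of microglial identity, fell by 0.25 (adjusted p = 0.00232), and Tyrobp, a signalling adaptor, rose by 0.25 (adjusted p = 0.00337). The list mean ran from 12.62 to 12.80 in Sham, from 12.56 to 12.68 in LPS, from 12.54 to 12.70 in NaCl/HI and from 12.62 to 12.76 in LPS/HI. Of 15 genes of engulfment, 5 fell and 2 rose in LPS against Sham, with list means from 11.48 to 11.68 in Sham, from 11.47 to 11.64 in LPS, from 11.61 to 11.76 in NaCl/HI and from 11.55 to 11.67 in LPS/HI. In LPS against NaCl/HI, 7 of the 15 fell and 1 rose, where 3.66% of all genes were called lower and 5.32% higher. In LPS against Sham, Elmo1, which relays engulfment signals to the cytoskeleton, fell by 0.33 (adjusted p = 0.00128). The receptor Lrp1 fell by 0.40 (adjusted p = 0.00157) and the receptor kinase Mertk by 0.32 (adjusted p = 0.00174) in the same pair.

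Of 11 endothelial genes, 5 fell and 1 rose in LPS against Sham (7.56% of all genes called lower and 10.2% higher), with list means from 11.31 to 11.57 in Sham and from 11.15 to 11.42 in LPS. Of 13 genes of mural cells and fibroblasts, 6 rose in LPS/HI against Sham (5.3% of all genes), with list means from 9.10 to 9.34 against 8.84 to 9.06, which did not overlap. Of 12 neutrophil genes, 4 rose in the same pair and at the same background, with list means from 6.66 to 7.55 against 6.48 to 6.91. Of 10 genes of choroid plexus and ependyma, 1 rose in that pair and none was called in LPS against Sham, and their mean ran against that of the neuron members over the 23 samples (r = -0.75, rho = -0.68, r = -0.63 without LPS replicate 5 and NaCl/HI replicate 2), given as a description. Since HI samples held a hemisphere and the others a whole brain, genes of brain regions were followed as well. The mean of 17 hindbrain and cerebellum genes lay between 2.87 and 3.00 and that of 21 forebrain genes between 5.14 and 5.42 over all samples. The hindbrain list lay low on the scale, where rlog draws values toward their mean, so its narrow range cannot show whether tissue differed. In NaCl/HI against Sham, none of the 17 and none of the 21 was called by limma, with 2 and 1 under an unadjusted p of 0.05, against 14.8% of all genes. In LPS against Sham, 2 hindbrain genes rose and 1 fell, and 1 forebrain gene rose and 1 fell, where 17.8% of all genes were called. Against the same Sham samples, 2 hindbrain genes and 1 forebrain gene fell in LPS/HI, where 3.48% of all genes were called lower.

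By library number, replicates 1 to 3 of each group form a first series and the remaining replicates a second. Of the 19 calls of members, 18 had the same direction in both series. The exception was Map2 in LPS against Sham, with -0.38 in the first series and no difference to 2 decimals in the second. The calls were selected in a fit of all samples of both series, so a shared direction is a description and no independent support.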

How the data were processed

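Kallisto 0.48.0 with mRatBN7.2 transcripts, tximport and DESeq2 were used by the authors for quantification. Genes with low counts had been dropped, and counts of protein-coding genes sharing a symbol had been added up. The deposited table holds log2 values (rlog) for 20301 genes and 23 samples, from which the authors had taken out 3 surrogate variables by means of sva and limma. Counts were not used here, so depth per sample is unknown, and no counting error is given.

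The 6 pairs of groups and the interaction were fitted with limma 3.58.1 in R 4.3.3 with a variance trend, at 16 residual degrees of freedom in place of 19, since 16 is the rank of the deviations within groups. Benjamini-Hochberg adjustment ran over all genes, and no gene was filtered out. The fit was tested on simulated data. Replicates are biological by their titles, and p values measure the spread between these samples only.

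The 39 members and the 12 other lists were chosen with earlier results of these data known. Members called in any comparison are described in full, and the rest by counts, ranges or a difference. Of each other list up to 3 genes with the smallest adjusted p over the comparisons are named, with the defining markers of microglia. Vim, Serping1, Nes, Chga, Scg2 and Gap43 fall outside this rule and were chosen after their values were seen. Alternatives changed the degrees of freedom, trend, robust variances, samples fitted, blocks, low genes, centring, quantile normalization, sample weights, fold, test and each sample in turn. Figures were drawn with matplotlib 3.10.9 in Python 3.11.15. Promoter sequences are from RefSeq (GRCr8).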

Additional observations from a re-analysis of the deposited data

Results flagged for a closer look

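In 15 of 172 sets of group values, the 39 members and the 4 list means in each of the 4 groups, the lowest or highest sample stood apart from the rest of its group. The gap to the next sample is given as a share of the group's whole range. Chance gives about 1 in 20 such sets. The sets share samples and many of their genes correlate, so the count cannot be read as an excess over this rate.

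LPS replicate 1 was low for 4 astrocyte genes. It had 8.60 for Aldh1l1, where the next LPS sample had 8.84 (share 0.756), 10.76 against 11.07 for Slc1a2 (share 0.852), 12.88 against 13.28 for Slc1a3 (share 0.887) and 10.03 against 10.33 for Fgfr3 (share 0.742). The astrocyte genes stood apart elsewhere too. Gja1 was highest in LPS replicate 3, with 11.11 against 10.87 (share 0.75). NaCl/HI replicate 6 was low for Aldh1l1, with 8.27 against 8.51 (share 0.666), and for Fgfr3, with 9.65 against 9.93 (share 0.69).

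In the oligodendrocyte lineage, NaCl/HI replicate 6 was high for Mog, with 5.21 against 3.92 (share 0.721), and NaCl/HI replicate 4 for Pdgfra, with 11.27 against 10.78 (share 0.658). Olig1 was highest in LPS replicate 2, with 9.16 against 8.69 (share 0.853). Mobp was highest in LPS replicate 5, with 7.90 against 7.40 (share 0.768). Enpp6 was highest in Sham replicate 1, with 9.48 against 8.71 (share 0.765).

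Among neuron genes, Slc17a6 was lowest in NaCl/HI replicate 2, with 4.53 against 4.88 (share 0.637), and highest in LPS/HI replicate 3, with 5.23 against 4.78 (share 0.695). The mean of the neuron list was lowest in NaCl/HI replicate 2, with 6.95 against 7.12 (share 0.628). No member passed the test of the interaction.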

How the results depend on the processing

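Of 16 members followed in their comparison with the smallest adjusted p (the 11 called and 5 others, among them Olig1 and Pdgfra), none changed direction under any alternative run, and the cause of the changes below was not tested. Mog could not be tested without the genes of lowest mean, and depth is unknown. Sample weights came from a fit that did not fully converge.

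Counts are of the 39 members, with the genes of the 12 other lists, added after the data were seen, after them. A fold above 2 left 0 members called in LPS against Sham, LPS/HI against Sham, LPS/HI against LPS and LPS against NaCl/HI, and 1, 3, 0 and 0 other genes in these pairs, and 0 other genes in the interaction. Without lowering the degrees of freedom, 1 member was called in LPS/HI against NaCl/HI (Snap25) and 8 in LPS against NaCl/HI, and of other genes 2 in NaCl/HI against Sham, 33 in LPS/HI against LPS, 6 in LPS/HI against NaCl/HI and 6 in the interaction. Sample weights gave 11 members in LPS/HI against Sham, 14 in LPS/HI against LPS, 3 in LPS/HI against NaCl/HI, 10 in LPS against NaCl/HI and 1 in the interaction, and other genes numbered 14 in NaCl/HI against Sham, 94 in LPS/HI against Sham, 76 in LPS/HI against LPS, 46 in LPS/HI against NaCl/HI and 29 in the interaction. Fits of only the groups compared gave 9 members in LPS/HI against Sham and 3 in LPS/HI against LPS, with 30 other genes there and 1 in NaCl/HI against Sham. The exact Wilcoxon test gave 4 members in LPS against Sham and 0 in LPS/HI against LPS and LPS against NaCl/HI, and 0 other genes in the last 2 of these and in LPS/HI against NaCl/HI. In these 3 pairs and NaCl/HI against Sham it called 0 of all genes (2067 to 3707 had an unadjusted p under 0.05), and the smallest adjusted p of a listed gene was 0.0593. Median centring gave 5 members in LPS against Sham, and quantile normalization 3 in LPS/HI against Sham and 0 in LPS/HI against LPS, and each gave 1 other gene in NaCl/HI against Sham and 0 in LPS/HI against NaCl/HI. Robust variances gave 3 members in LPS/HI against Sham. Of other genes in LPS/HI against NaCl/HI, 0 were left with robust variances, without the variance trend and with the library series as a block, and 2 without the genes of lowest mean, and the series block gave 1 in NaCl/HI against Sham.

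Samples with the same replicate number did not deviate together (r from -0.47 to 0.47 over 33 pairs, 8 above 0.1, and 5 of 23 samples correlated best with their own number), so the numbers do not pair them. With the replicate number as a block, 2 members were called in LPS/HI against Sham and 0 in LPS/HI against LPS, and other genes numbered 30 in LPS against Sham, 20 in LPS/HI against Sham, 6 in LPS/HI against LPS, 19 in LPS against NaCl/HI and 0 in both LPS/HI against NaCl/HI and the interaction.

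With each sample left out in turn, the members called ranged from 4 to 10 in LPS against Sham, from 0 to 2 in NaCl/HI against Sham, from 2 to 6 in LPS/HI against Sham, from 0 to 1 in LPS/HI against LPS and from 4 to 8 in LPS against NaCl/HI, and stayed at 0 in LPS/HI against NaCl/HI and the interaction. The counts moved most without LPS replicate 4 (4 in LPS against Sham), Sham replicate 1, Sham replicate 2 or LPS replicate 2 (5 each there), Sham replicate 1 (2 in LPS/HI against Sham), Sham replicate 5 or 6 or LPS/HI replicate 4 or 5 (3 each there), LPS replicate 2 or 4 or LPS/HI replicate 5 (0 in LPS/HI against LPS), NaCl/HI replicate 4 (2 in NaCl/HI against Sham), and NaCl/HI replicate 4 or 5 (8 and 7 in LPS against NaCl/HI). Other genes ranged from 31 to 54, 0 to 12, 24 to 43, 7 to 29, 0 to 4, 23 to 43 and 2 to 8 in LPS against Sham, NaCl/HI against Sham, LPS/HI against Sham, LPS/HI against LPS, LPS/HI against NaCl/HI, LPS against NaCl/HI and the interaction.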
